A study of Mus musculus with 20 samples.

Results

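The genes described here are 38 genes of DNA replication and S phase, the part of the cell cycle in which the genome is copied. They were taken by name from the gene table of a mouse feeding study, and the list was chosen with earlier results of these data known. All 38 symbols were found among the 39179 genes of the table, and all 38 were among the 15254 genes with enough reads to be tested. RNA had been sequenced from epididymal fat, the visceral fat pad beside the testis. The mice were males of the inbred strain C57BL6/J. They ate chow (day 0) or had been moved to a high-fat diet 2, 4, 6 or 14 days earlier. Each of these 5 groups had 4 libraries. The labels speak of biological replicates without tying the libraries to animals, so p-values measure the spread between these libraries. No genotype other than the strain, no transgene and no other treatment is named, and ages are not given in the sources used here. The libraries were made from bulk fat tissue, which holds adipocytes together with vascular, immune and connective tissue cells. The tissue label was checked with 11 adipocyte genes, among them Adipoq and Fabp4. All of these were above 0 in every library, and their summed level ran from 21759 to 45454 CPM, the count of reads scaled to a common library total.

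Cells license their replication origins before S phase. The origin recognition complex, Cdc6 and Cdt1 load rings of the Mcm2 to Mcm7 proteins onto DNA, and Cdc45 and the GINS proteins then turn each ring into a working helicase. Polymerases, their sliding clamp Pcna and its loader, and DNA ligase copy the opened strands, while ribonucleotide reductase and the thymidylate enzymes supply the nucleotides and chromatin assembly factors package the new DNA. Most of these genes are switched on together in late G1 by E2F transcription factors, which act as dimers with Dp proteins, are held in check by the retinoblastoma family and are released by cyclin-dependent kinases. Mature adipocytes are regarded as largely non-dividing, and proliferation in adipose tissue is usually studied in progenitor, endothelial and immune cells.

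The promoters of these genes are shown first because a sequence feature that was not used to choose the members was found more often in them than in all genes. RefSeq promoter windows of 300 bases (250 before to 50 after the annotated start, build GRCm38.p6) were on hand for 33 of the 38 genes. Gins1, Gins2, Mcm4, Pole and Ccne2 had none. The windows were searched on both strands for 4 words that match the E2F site, TTTCCCGC, TTTCGCGC, TTTGCCGC and TTTGGCGC. Overlapping matches were counted separately. At least 1 of these words was found for 14 of the 33 genes (42.4%), against 704 of all 27025 genes with a window (2.6%). In the stretches below, which run 5′ to 3′ over the 200 bases before the start, capitals mark the E2F words. Mcm6, Mcm5 and Cdc6 are shown as licensing and helicase genes that carry words and rose on day 4, and Orc1 and 1 of the 2 annotated starts of Mcm7 as genes that carry words and were not called. E2f8 and Rrm2 are shown because they had the largest changes of their roles on day 4 and no E2F word in the window. Uhrf1, whose change was larger than that of Rrm2, carried 1 word before an annotated start and is not shown.
Mcm6, chr1:128359706-128359905, minus strand: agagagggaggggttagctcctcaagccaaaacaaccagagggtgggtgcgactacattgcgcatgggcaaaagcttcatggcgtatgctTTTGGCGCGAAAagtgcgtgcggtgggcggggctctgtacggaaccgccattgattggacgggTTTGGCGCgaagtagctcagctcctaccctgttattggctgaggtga
Mcm5, chr8:75109309-75109508, plus strand: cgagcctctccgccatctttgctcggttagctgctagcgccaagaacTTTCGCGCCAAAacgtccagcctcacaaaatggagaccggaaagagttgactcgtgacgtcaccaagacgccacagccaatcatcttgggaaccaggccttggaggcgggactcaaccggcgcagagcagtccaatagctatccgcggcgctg
Cdc6, chr11:98907951-98908150, plus strand: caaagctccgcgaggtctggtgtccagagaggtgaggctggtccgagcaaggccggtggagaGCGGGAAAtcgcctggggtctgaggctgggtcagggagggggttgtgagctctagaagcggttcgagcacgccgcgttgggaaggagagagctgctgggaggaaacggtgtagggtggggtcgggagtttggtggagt
Orc1, chr4:108579254-108579453, plus strand: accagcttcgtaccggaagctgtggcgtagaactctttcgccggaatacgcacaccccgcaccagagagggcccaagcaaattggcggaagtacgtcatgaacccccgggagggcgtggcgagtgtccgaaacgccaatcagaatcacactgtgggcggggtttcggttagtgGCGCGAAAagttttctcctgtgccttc
Mcm7, chr5:138171884-138172083, minus strand: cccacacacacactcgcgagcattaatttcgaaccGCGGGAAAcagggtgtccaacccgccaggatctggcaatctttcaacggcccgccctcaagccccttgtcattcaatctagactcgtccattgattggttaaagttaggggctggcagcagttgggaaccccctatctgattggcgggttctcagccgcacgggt
E2f8, chr7:48881597-48881796, minus strand: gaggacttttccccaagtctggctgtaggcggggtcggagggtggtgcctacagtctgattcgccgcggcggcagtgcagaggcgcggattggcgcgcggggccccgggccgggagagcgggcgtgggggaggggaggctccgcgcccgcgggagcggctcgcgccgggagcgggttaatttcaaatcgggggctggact
Rrm2, chr12:24708054-24708253, plus strand: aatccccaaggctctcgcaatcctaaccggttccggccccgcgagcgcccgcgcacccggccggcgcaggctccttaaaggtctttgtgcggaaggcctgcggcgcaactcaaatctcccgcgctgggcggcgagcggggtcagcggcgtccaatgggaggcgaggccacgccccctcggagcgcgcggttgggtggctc
In Mcm6 the first capital run is a word on each strand that overlap, and a further word follows nearer the start. The run in Mcm5 is likewise an overlapping pair. Mcm7 has 2 annotated starts, and the window of the other one held no word.

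Having a word did not go with a larger change on day 4. Of the 14 genes with a word 11 rose, with a median log2 change of 1.26, and of the 19 genes whose windows held none 16 rose, with a median of 1.40. All 5 genes without a window rose. The 31 genes of a mitosis list, which act later in the cell cycle, carried other words. The cell cycle genes homology region (CHR), searched as TTTGAA and TTCGAA, was present for 81.5% of the 27 mitosis genes with a window, for 21.2% of the replication genes and for 21.7% of all genes. The CCAAT box was present for 81.5%, 60.6% and 41.1% of them, and an E2F word for 1 of the 27 mitosis genes (3.7%). These are letter matches in a fixed window, not binding sites, and a window without a match says only that these letters are not in it.

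**Figure D1:**
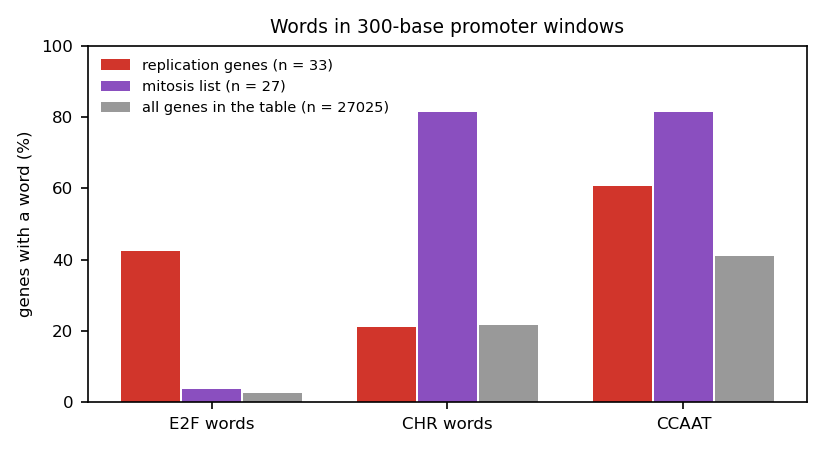
Share of genes (%) with at least 1 E2F word, CHR word or CCAAT box in their 300-base promoter window, for the 33 replication genes, the 27 mitosis genes and the 27025 genes with a window. The E2F bar of the replication genes stands at 42.4%, against 3.7% and 2.6%, while the CHR bar of the mitosis genes stands at 81.5%.

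Library totals ran from 1916829 to 38832429 counts, and the 38 genes together received 644 to 20692 of them. Log2 CPM of libraries of 1 group correlated across genes at 0.954 to 0.989, where genes are not independent replicates. In 2 libraries values are in doubt. Day 2 replicate 1 had the smallest total. In day 0 replicate 4 the 10 genes listed for the epididymal duct summed to 187 CPM, against at most 9.17 elsewhere. Of that list Cuzd1, Dsp and Epcam reached at most 80.1, 59.3 and 41.2 CPM in any library. Lcn5, Lcn8, Defb41, Rnase10, Adam7 and Crisp1 never exceeded 1.99 CPM. The source of the 187 CPM was not tested. For the replication genes other libraries stood apart. Day 4 replicate 1 was low, being the lowest of its day for 36 of the 38 genes, and day 6 replicate 4 was high, being the highest of its day for 35. In the other day 4 libraries the genes averaged a median of 2.57 times the level in replicate 1, and in day 6 replicate 4 a median of 1.74 times the mean of the other day 6 libraries. Of the high libraries, day 4 replicates 2 and 3 had 4713573 and 4578703 counts in total. Day 4 replicate 4 and day 6 replicate 4 had 15593689 and 32363044, and the low day 4 replicate 1 had 16274913. The part of depth was not tested. Day 4 replicate 1 and day 6 replicate 4 were kept as labelled. Whether libraries were exchanged was not tested, and the day 4 and day 6 means, folds and calls all rest on the labels. Counts and medians are therefore also given without these libraries, which were picked by the levels of the replication genes themselves, so such values are a description.

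After 4 days of high-fat feeding 32 of the 38 replication genes had risen over chow and none had fallen, by edgeR's quasi-likelihood F test with Benjamini-Hochberg adjustment over all 15254 genes (adjusted p under 0.05). Of all genes tested, 18% were called higher and 17.3% lower in this comparison. The median log2 change of the 38 genes was 1.26, and that of all genes was -0.02. Changes ran from -0.01 for Mcm7 to 3.53 for E2f8. Between the roles, the medians were 1.00 for the 4 licensing genes, 1.08 for the 10 helicase genes, 0.73 for the 11 synthesis genes, 1.84 for the 4 nucleotide genes, 2.11 for the 3 chromatin genes and 1.57 for the 6 regulators. For 16 of the 38 genes all 4 day 4 libraries lay above all 4 chow libraries, as for 15.2% of all genes. In bulk tissue, more cells of a dividing type and more of this RNA per cell cannot be told apart.

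**Figure D2:**
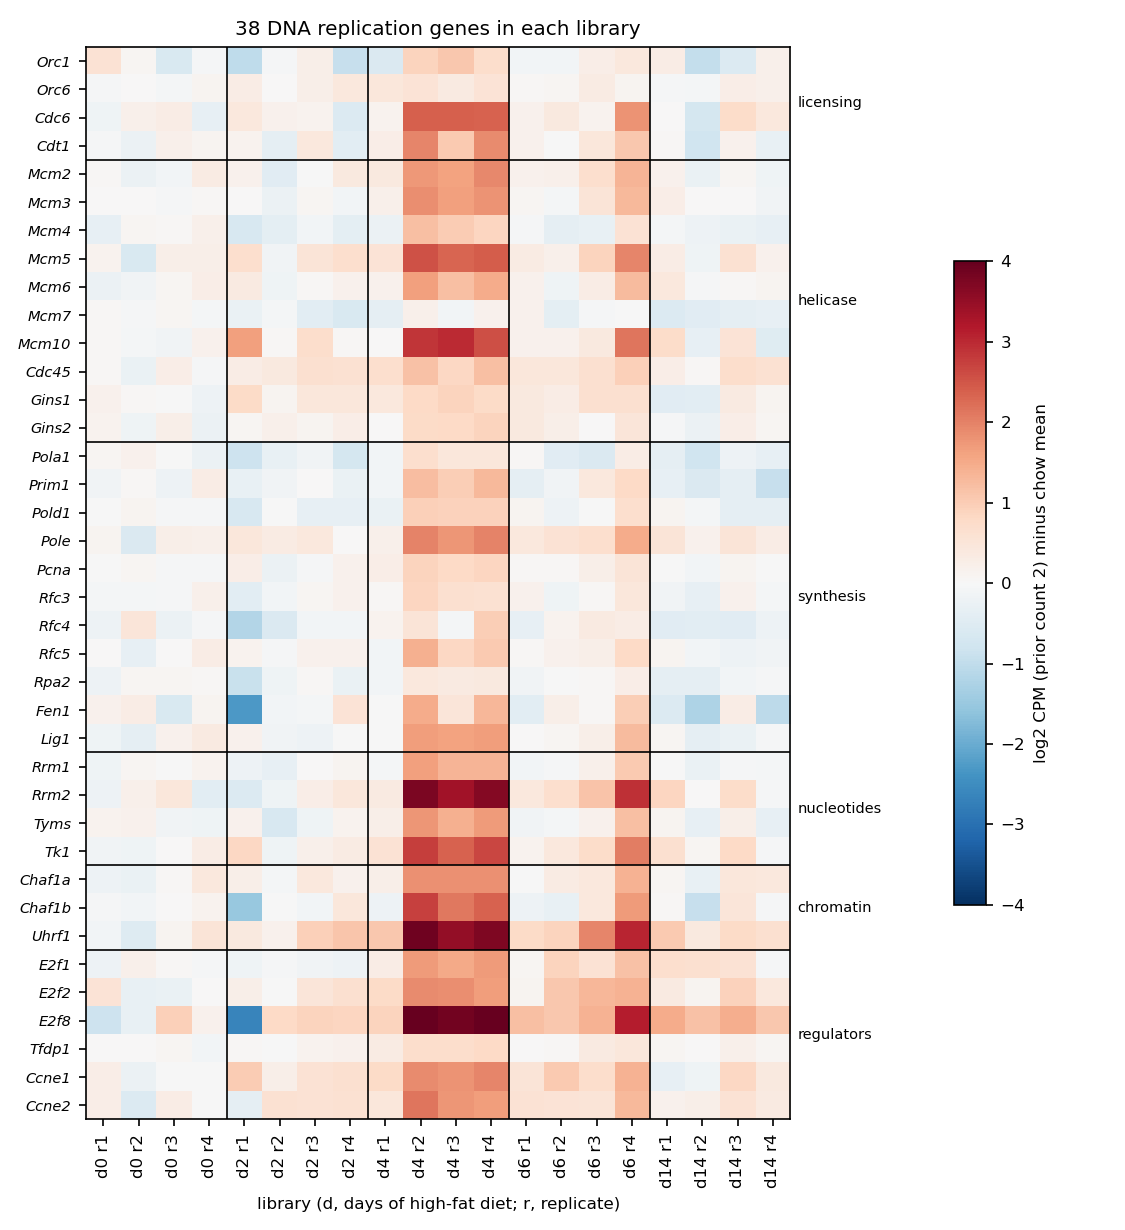
Log2 CPM (prior count 2) minus the mean of the chow libraries, for each of the 38 genes (rows, by role) in each of the 20 libraries (columns, by days of high-fat diet and replicate). Red is above and blue below chow; day 4 replicates 2 to 4 are red for nearly every gene, day 6 replicate 4 is paler red, and day 4 replicate 1 is close to chow.

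Of the 4 licensing genes, 3 rose on day 4. Cdc6 (ENSMUSG00000017499) encodes the ATPase that recruits the helicase loader. Its level was 1.4, 1.86, 2 and 1.25 CPM in the chow libraries and 1.78, 8.83, 8.88 and 8.76 CPM in day 4 replicates 1 to 4. The last 3 of these values were nearly equal and far above chow, whereas replicate 1 lay inside the chow range. The log2 change was 2.09 ± 0.48 (SE), an increase of 4.27-fold (adjusted p = 0.00363). Cdt1 (ENSMUSG00000006585), which brings the Mcm ring to the origin, read 3.32, 2.91, 3.97 and 3.71 CPM on chow and 4.13, 13.7, 7.32 and 13.2 CPM on day 4. All day 4 libraries were above all chow libraries, though replicate 1 only just, and the log2 change was 1.44 ± 0.34 (adjusted p = 0.0043). Orc6 (ENSMUSG00000031697), a subunit of the origin recognition complex, had the smallest rise of the role. It went from 18.7, 19.5, 18.1 and 21 CPM on chow to 26.3, 28.6, 24.9 and 28.3 CPM on day 4, without overlap and with replicate 1 level with the others (log2 change 0.48 ± 0.10, adjusted p = 0.00276). Orc1, the large subunit of the same complex, was not called (log2 change 0.57 ± 0.41, adjusted p = 0.283). It had 1.86, 1.28, 0.759 and 1.15 CPM on chow and 0.763, 2.31, 2.66 and 2.03 CPM on day 4, with the lowest day 4 library inside the chow range.

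In the helicase role 9 of 10 genes rose, and Mcm7 did not. The Mcm2 to Mcm7 proteins form 1 ring in which each is present, so the levels of the 6 genes are given side by side as changes. Mcm5 had the largest log2 change of the ring, 2.07 ± 0.40 (adjusted p = 0.00172), followed by Mcm3 at 1.5, Mcm2 at 1.49, Mcm6 at 1.20 and Mcm4 at 0.76. For Mcm5 (ENSMUSG00000005410) the libraries held 7.39, 4.42, 7.87 and 8.01 CPM on chow and 9.98, 39.7, 34.4 and 36.5 CPM on day 4. All day 4 libraries were higher, with replicate 1 just above the chow range and the others at several times its level. Mcm6 (ENSMUSG00000026355) went from 13.1, 14.1, 16.4 and 18.5 CPM to 17.4, 47.9, 36 and 43.5 CPM, where replicate 1 lay within the chow range (log2 change 1.20 ± 0.29, adjusted p = 0.00486). Mcm7 (ENSMUSG00000029730) had 35.6, 33.8, 36.3 and 33.1 CPM on chow and 27, 40.3, 32.4 and 38.8 CPM on day 4. These ranges overlapped in both directions, and the log2 change was -0.01 ± 0.13 (adjusted p = 0.975). Its sign turned positive, to between 0.01 and 0.10, when day 0 replicate 3, day 4 replicate 1 or day 4 replicate 3 was left out. In the GENCODE M21 annotation of GRCm38, 12.6% of the exon bases of Mcm7 also lie in exons of other genes (Mir25, Mir93, Ap4m1 and Cops6).

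Mcm10 (ENSMUSG00000026669), a factor that helps to activate the helicase and tether the first polymerase, had the largest change of its role. It read 1.16, 1.05, 1.01 and 1.28 CPM on chow and 1.14, 8.83, 9.77 and 7.26 CPM on day 4, with replicate 1 inside the chow range and the other libraries far above it (log2 change 2.53 ± 0.58, adjusted p = 0.00385). Cdc45 and the GINS subunits complete the active helicase, and their changes were smaller and more even. Cdc45 had 6.34, 5.11, 7.47 and 5.89 CPM on chow and 9.79, 14.1, 11.1 and 14.2 CPM on day 4, without overlap (log2 change 0.97 ± 0.17, adjusted p = 0.00125). Gins1 changed by 0.75 ± 0.21 (adjusted p = 0.0122) and Gins2 by 0.62 ± 0.18 (adjusted p = 0.0128). For Gins2, 67.3% of the exon bases lie opposite exons of Gse1, and no strand setting of the counting is given, so reads of the 2 genes cannot be told apart. The calls of Mcm4 and Gins2 were the weaker ones of the role. Mcm4 lost its call without day 0 replicate 1 (adjusted p = 0.0553) and without day 4 replicate 2, 3 or 4 (adjusted p = 0.0738, 0.0558 and 0.059), and Gins2 lost it without day 4 replicate 4 (adjusted p = 0.0644).

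Synthesis genes had the lowest median change of the roles. Of 11, 7 rose, and Pola1, Rfc4, Rpa2 and Fen1 were not called. Pcna (ENSMUSG00000027342), the sliding clamp that holds the polymerases on DNA, had 38.1, 40.3, 37.3 and 37.2 CPM on chow and 46.2, 71.2, 66.8 and 69.4 CPM on day 4. All day 4 libraries exceeded all chow libraries, and replicate 1 was again the lowest (log2 change 0.73 ± 0.13, adjusted p = 0.00135). The pseudogene Pcna-ps2 had 301 counts over all libraries, 2.06% of those of Pcna, and reads could be split between the copies. Pole (ENSMUSG00000007080), the catalytic subunit of the leading-strand polymerase, had the largest change of the role, from 5.47, 3.37, 6 and 5.83 CPM to 5.79, 20.4, 17.5 and 20.4 CPM. The ranges touched through replicate 1 alone (log2 change 1.58 ± 0.31, adjusted p = 0.00178). Pold1 (ENSMUSG00000038644), the catalytic subunit of the lagging-strand polymerase, read 10.9, 12.1, 10.7 and 10.7 CPM on chow and 9.28, 21.6, 21.3 and 21.2 CPM on day 4. Replicate 1 lay below every chow library while the others, nearly equal, were well above all of them (log2 change 0.71 ± 0.23, adjusted p = 0.0221).

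Rpa2 (ENSMUSG00000028884), which coats single-stranded DNA, had the smallest change of the role, 0.26 ± 0.15 (adjusted p = 0.194). Its libraries held 10.5, 13, 12.8 and 12.7 CPM on chow and 11.3, 16.4, 15.5 and 16 CPM on day 4, so that replicates 2 to 4 were above chow and replicate 1 within it. Lig1, the ligase that joins the fragments of the lagging strand, rose by 1.32 ± 0.32, the primase subunit Prim1 by 0.94 ± 0.28, and the clamp loader subunits Rfc5 and Rfc3 by 0.85 ± 0.24 and 0.55 ± 0.18. The clamp loader subunit Rfc4 and the polymerase alpha subunit Pola1 had log2 changes of 0.47 ± 0.25 and 0.38 ± 0.21 (adjusted p = 0.149 and 0.157). Fen1, the flap nuclease, was scarcely counted, at 0.523, 0.581, 0.253 and 0.499 CPM on chow and 0.445, 1.47, 0.666 and 1.31 CPM on day 4 (log2 change 1.09 ± 0.49, adjusted p = 0.0906). In the annotation 84.2% of its exon bases are shared with Tmem258 and Gm10143 on the other strand, so its count is uncertain. Without day 4 replicate 1, Pola1 and Fen1 were called as well (adjusted p = 0.0499 and 0.0362). In the same role 3 calls were lost when single libraries were left out. Prim1 lost its call without day 4 replicate 4 (adjusted p = 0.0785). For Pold1 this held without day 0 replicate 3 or 4 or day 4 replicate 2, 3 or 4, and for Rfc3 without day 0 replicate 1, 2 or 3 or day 4 replicate 2, 3 or 4, with an adjusted p of at most 0.0851 and 0.0824.

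All 4 nucleotide genes rose. Rrm2 (ENSMUSG00000020649), the small subunit of ribonucleotide reductase that is made in S phase, had 2.09, 2.79, 3.34 and 1.78 CPM on chow and 3.12, 34.3, 26 and 32.1 CPM on day 4. Replicates 2 to 4 were far above chow, and replicate 1 was within its range. The log2 change of 3.23 ± 0.62 corresponded to 9.41-fold (adjusted p = 0.0016). Its partner Rrm1 (ENSMUSG00000030978), the large subunit, changed less, by 1.18 ± 0.28 (adjusted p = 0.00463), with 18.8, 22.3, 21 and 23.3 CPM on chow and 20.1, 66.4, 54.6 and 54.8 CPM on day 4. Rrm2b, which encodes the alternative small subunit that supplies non-dividing cells and is not among the 38 genes, fell, with a log2 change of -0.53 ± 0.12 (adjusted p = 0.00287). It had 34.3, 42, 38 and 36.1 CPM on chow and 29.6, 24.8, 25.1 and 23.9 CPM on day 4, without overlap. The salvage kinase gene Tk1 (ENSMUSG00000025574) read 4.07, 3.95, 4.48 and 5.55 CPM on chow and 6.8, 31.3, 23.3 and 29.1 CPM on day 4. Every day 4 library was above chow, replicate 1 by the least (log2 change 2.29 ± 0.43, adjusted p = 0.00148). Tyms, which makes thymidylate, rose by 1.40 ± 0.32 (adjusted p = 0.00385).

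The 3 chromatin genes rose as well. Uhrf1 (ENSMUSG00000001228) encodes the factor that guides DNA methylation onto newly copied strands, and its 9.83-fold rise (log2 change 3.30 ± 0.54, adjusted p = 0.00104) was the second largest of the 38. Its libraries held 2.62, 1.98, 3.09 and 4.14 CPM on chow and 6.17, 43.5, 33.5 and 39 CPM on day 4, with no overlap and replicate 1 far below the other day 4 libraries. Chaf1a (ENSMUSG00000002835), the large subunit of chromatin assembly factor 1, went from 3.96, 3.84, 4.73 and 6.2 CPM to 5.4, 16.6, 16.6 and 16.7 CPM. Replicates 2 to 4 were nearly equal and replicate 1 was within the chow range (log2 change 1.52 ± 0.34, adjusted p = 0.00315). Of its exon bases 52.5% lie opposite exons of Ubxn6. Chaf1b, the middle subunit, rose by 2.11 ± 0.53 (adjusted p = 0.00605).

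All 6 regulators rose, 5 of them without overlap between day 4 and chow. E2f8 (ENSMUSG00000046179) encodes an atypical E2F that represses E2F targets late in S phase and is itself one of them, and it had the largest change of the 38 genes. It read 0.291, 0.465, 1.27 and 0.685 CPM on chow and 1.21, 12, 10.2 and 11.2 CPM on day 4, where replicate 1 fell inside the chow range and the rest did not (log2 change 3.53 ± 0.65, 11.6-fold, adjusted p = 0.00135). The activator E2f1 (ENSMUSG00000027490) had 6.34, 8.6, 7.62 and 7.17 CPM on chow and 9.16, 24.4, 21.3 and 24.4 CPM on day 4. Its day 4 libraries were all higher, by 1.40 ± 0.26 on the log2 scale (adjusted p = 0.00141). E2f2, another activator, changed by 1.56 ± 0.29 (adjusted p = 0.00144). Tfdp1 (ENSMUSG00000038482), the Dp partner of the E2F proteins, had the smallest change of its role and the lowest p of the 38 genes. Its libraries held 37.8, 38.1, 39.3 and 35.2 CPM on chow and 47.1, 61.1, 61.7 and 65.2 CPM on day 4, all of them higher on day 4 (log2 change 0.64 ± 0.10, adjusted p = 0.000977). The E-type cyclins, which drive Cdk2 at the entry into S phase, rose by 1.67 ± 0.29 (Ccne1) and 1.57 ± 0.30 (Ccne2).

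**Figure D3:**
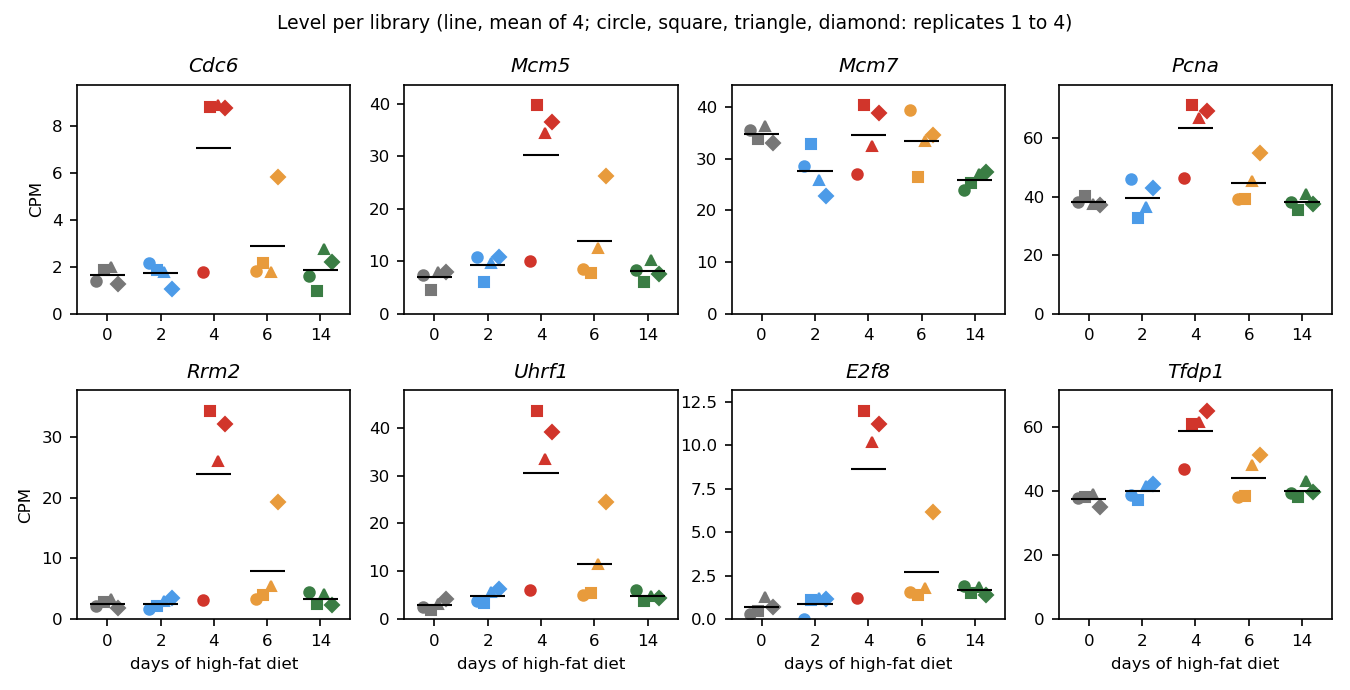
Level in CPM (linear axes from 0) of 8 genes by days of high-fat diet, with 1 point per library and a line at the mean of 4. Replicates 2 to 4 of day 4 stand above all chow libraries for every gene shown except Mcm7, and day 6 replicate 4 (diamond) lies between them and chow.

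The day 4 result was carried by replicates 2, 3 and 4. Measured against the chow mean, the median log2 difference of the 38 genes was 0.20 in replicate 1 and 1.66, 1.29 and 1.58 in replicates 2 to 4. Replicate 1 had 16 genes above the chow range, 19 within it and 3 below. In the other day 4 libraries at least 36 of the 38 were above it. Without replicate 1 the count of genes called on day 4 was 34 and the median change 1.54. Leaving out each of the other chow and day 4 libraries in turn gave 27 to 31 calls. The fold changes given above were larger without it, at 12.3-fold for Rrm2, 12.6-fold for Uhrf1, 15.2-fold for E2f8 and 5.44-fold for Cdc6. Limma-voom called 26 genes, and a fit of chow and day 4 alone called 27. Without day 0 replicate 4 and day 2 replicate 1 together, a check added after the data were seen, 30 genes were called. Scaling by library size alone moved the median of all genes to -0.13 and that of the 38 to 1.15, with 29 called.

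Some marker genes of other cell types moved with the same libraries. Of all genes tested, 18% were called higher and 17.3% lower on day 4 against chow. The summed level of 10 endothelial genes was 1976, 2171 and 1821 CPM in day 4 replicates 2 to 4 and 2025 CPM in day 6 replicate 4, against 1014 to 1569 CPM over all 16 remaining libraries, of which day 4 replicate 1 had 1222 CPM. Of these 10 genes 5 (50%) were called higher on day 4 (Egfl7, Kdr, Cdh5, Emcn and Pecam1), and none was at 0 in any library. The other 5 were not called, with log2 changes of 0.68 (Tie1), 0.19 (Esam), 0.08 (Flt1), -0.05 (Vwf) and -0.09 (Tek). For 5 of the 10 genes day 4 replicates 2 to 4 and day 6 replicate 4 were the 4 highest libraries. The adipocyte sum was 21759, 23228 and 23578 CPM in day 4 replicates 2 to 4 and 33894 CPM in replicate 1, while it ran from 23881 to 43343 CPM on chow. Of the 11 adipocyte genes 1 rose (Lep, 9.09%) and 2 fell (Adipoq and Cfd, 18.2%), and the median log2 change was 0.01. Cfd, an adipocyte-secreted protease of the complement system, averaged 10924 CPM on chow and 2279 CPM on day 4. It too divided the libraries, with 5764 CPM in day 4 replicate 1, 956, 1207 and 1188 CPM in replicates 2 to 4 and 1020.1 CPM in day 6 replicate 4, against at least 4893 CPM in every other library. The adipocyte sums of chow and day 4 overlapped, though through day 4 replicate 1 alone. Without Cfd they also overlapped, at 17258 to 27432 CPM on chow and 20803 to 28129 CPM on day 4. Of 13 macrophage genes none rose and 1 fell on day 4, and the sums overlapped, at 1415 to 1678 CPM on chow and 896 to 1612 CPM on day 4. All 10 mesothelial genes fell, from sums of 399.5 to 523 CPM on chow to 82.2 to 243 CPM on day 4, in replicate 1 as in the others. Of 11 progenitor genes 2 rose (18.2%) and 4 fell (36.4%), with sums of 1959.9 to 2443 CPM on chow and 1085 to 1566 CPM on day 4. T and NK cell genes were sparse, with 2 of 9 lower (22.2%). The shares of adipocyte and T and NK cell genes that fell, and of progenitor genes that rose, were near those of all genes. The part of these cell types in the rise of the replication genes was not tested.

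**Figure D4:**
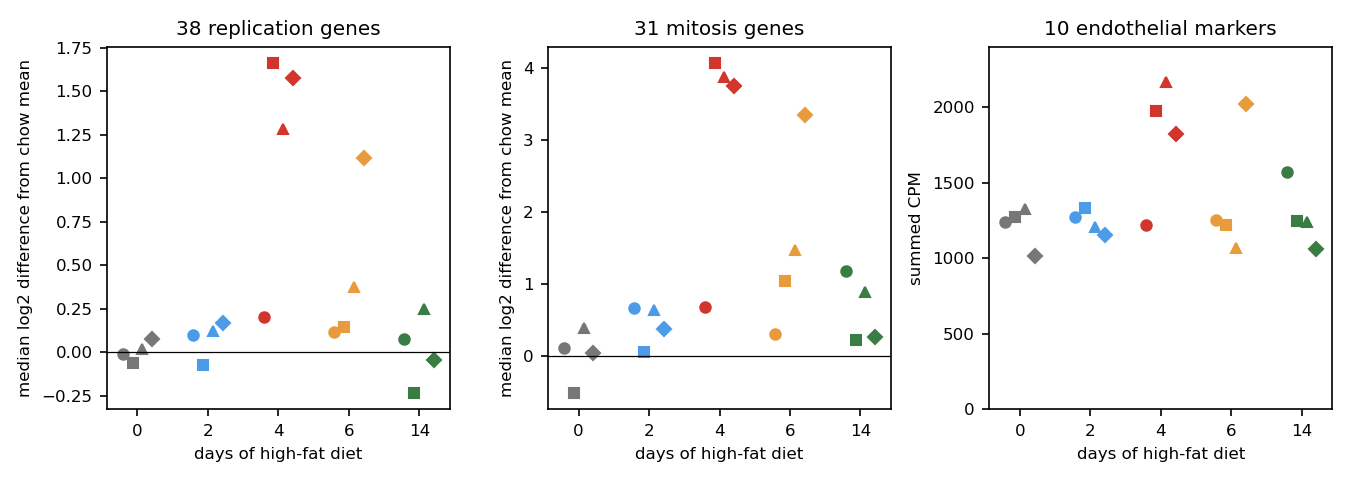
Median log2 difference from the chow mean of the 38 replication genes and of 31 mitosis genes, and summed CPM of 10 endothelial markers, by days of high-fat diet with 1 point per library (circle, square, triangle and diamond for replicates 1 to 4). In each panel day 4 replicates 2 to 4 and day 6 replicate 4 are the highest points.

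After 2 days none of the 38 genes was called in either direction by edgeR, DESeq2 or limma-voom, where 2.43% of all genes were called higher and 1.96% lower by edgeR. At an unadjusted p under 0.05 there were 3, against 3943 of the 15254 genes tested. The median log2 change was 0.03 (all genes, -0.03), turning to -0.07 when libraries were scaled by size alone. Cdc45 had the largest separation, with 7.55, 8.05, 9.66 and 9.35 CPM on day 2, all above chow (log2 change 0.49 ± 0.18, adjusted p = 0.0982). Mcm7 lay below chow in every library, at 28.6, 32.9, 26 and 22.7 CPM (log2 change -0.33 ± 0.13, adjusted p = 0.13). Those were the sole genes of the 38 without overlap, 1 in each direction, against 5.47% of all genes with all day 2 libraries higher and 7.26% with all lower.

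Set against day 2, day 4 had 21 of the 38 genes higher and none lower (2.14% of all genes were called higher and 0.256% lower), and all 38 changes were positive, with a median of 1.13. These included all 4 nucleotide genes, all 3 chromatin genes, 4 regulators, 4 synthesis genes, 4 helicase genes and 2 licensing genes. For 10 genes the libraries did not overlap (4.07% of all genes). The adjusted p of the called genes lay between 0.0412 and 0.047, so that small shifts changed the count. It was 0 without day 2 replicate 1, 2 or 3 or day 4 replicate 2, 3 or 4, and 16 without day 2 replicate 4. It was 34 without day 4 replicate 1, where 2240 of all 15408 genes tested were called in either direction. With limma-voom or with scaling by library size alone it was 0.

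By day 6 the changes from chow were smaller, and 2 genes were called higher, Cdc45 and Uhrf1 (1.99% of all genes were called higher and 1.46% lower). Cdc45 had 8.54, 8.5, 9.58 and 12 CPM on day 6, all above the chow libraries (log2 change 0.62 ± 0.17, adjusted p = 0.0488). Uhrf1 had 4.94, 5.41, 11.4 and 24.5 CPM, with the lowest library just above chow and the highest at several times its level (log2 change 1.92 ± 0.52, adjusted p = 0.0491). Changes were positive for 36 of the 38 genes, with a median of 0.48 (all genes, -0.01). An unadjusted p under 0.05 was seen for 14, against 3727 of the 15254 genes tested, and 7 did not overlap with chow (6.2% of all genes). Much of this lay in replicate 4. The median difference of the 38 genes from the chow mean was 0.12, 0.14 and 0.37 in replicates 1 to 3 and 1.12 in replicate 4, which had 34 genes above the chow range. Rrm2, for example, read 3.3, 3.91, 5.49 and 19.2 CPM, E2f8 1.53, 1.38, 1.77 and 6.15 CPM and Mcm5 8.51, 7.75, 12.5 and 26.2 CPM. In each case replicate 4 stood well above the others. Without replicate 4 the median change fell to 0.17 and neither gene was called. The count was also 0 without day 0 replicate 2 or 4 or day 6 replicate 2 or 3, 1 without day 0 replicate 3, 3 without day 0 replicate 1 and 5 without day 6 replicate 1.

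No gene of the 38 was called between day 6 and day 4 by edgeR, DESeq2 or limma-voom, and neither was any of the 15254 genes by edgeR (0%). All 38 changes were negative, with a median of -0.71, and 29 had an unadjusted p under 0.05 (2492 of the 15254 genes tested). With day 4 replicate 1 left out 26 genes were called lower on day 6, with day 6 replicate 4 left out 18 were, and with both left out 31 were. Among all genes tested in these fits, 737 of 15408, 414 of 15402 and 2249 of 15390 were called in either direction. For 32 of the 38 genes the 4 highest of the 20 libraries were day 4 replicates 2, 3 and 4 and day 6 replicate 4 (84.2%), as for 6.01% of all genes tested. Orc1, Orc6, Mcm7, Gins1, Rfc4 and Fen1 were the other 6. These 4 libraries were picked by the levels of the replication genes, so a high share of those genes was fixed by the pick and is a description.

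On day 14 none of the 38 genes differed from chow by the adjusted test in edgeR, DESeq2 or limma-voom (0.878% of all genes were called higher and 0.302% lower by edgeR). The median log2 change was -0.00, 18 changes were positive, and 2 genes had an unadjusted p under 0.05 (2749 of the 15254 genes tested). Mcm7, with 23.9, 25.2, 27 and 27.5 CPM, was below every chow library (log2 change -0.43 ± 0.13, adjusted p = 0.102), and so was Prim1 (-0.54 ± 0.29, adjusted p = 0.334). E2f8, with 1.88, 1.5, 1.82 and 1.4 CPM, was above every chow library (log2 change 1.19 ± 0.64, adjusted p = 0.342). Such separation was seen for 4.65% of all genes downward and 5.28% upward. An adjusted p above the threshold does not show that the levels were alike.

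Compared with day 4, 35 of the 38 genes were lower on day 14, where 4.78% of all genes were called lower and 4.58% higher. The median log2 change was -1.27, and Orc1, Mcm7 and Rpa2 were not called. Rrm2 had 4.5, 2.44, 4.1 and 2.33 CPM on day 14, within reach of the chow values and of day 4 replicate 1 (log2 change -2.78 ± 0.62, 6.89-fold lower, adjusted p = 0.0268). Uhrf1 had 6.04, 3.76, 4.9 and 4.51 CPM, below every day 4 library (log2 change -2.64 ± 0.54, 6.22-fold lower, adjusted p = 0.0268). Pcna, with 38.2, 35.6, 40.8 and 37.6 CPM, likewise fell below all day 4 libraries (log2 change -0.73 ± 0.13, adjusted p = 0.0268). In all, 11 genes did not overlap, against 6.36% of all genes. The count of 35 depended on single libraries: it was 0 without day 14 replicate 1 or 2 or day 4 replicate 2, 3 or 4, 19 without day 14 replicate 4, 32 without day 14 replicate 3, 37 without day 4 replicate 1, and 5 with limma-voom. Between day 14 and day 6 none of the 38 genes was called by edgeR, DESeq2 or limma-voom (0% of all genes by edgeR). All 38 changes were negative, and the median was -0.49. Without day 6 replicate 4 this median was -0.16. In the test of any difference between the 5 groups, 31 of the 38 were called (19.6% of all genes).

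**Figure D5:**
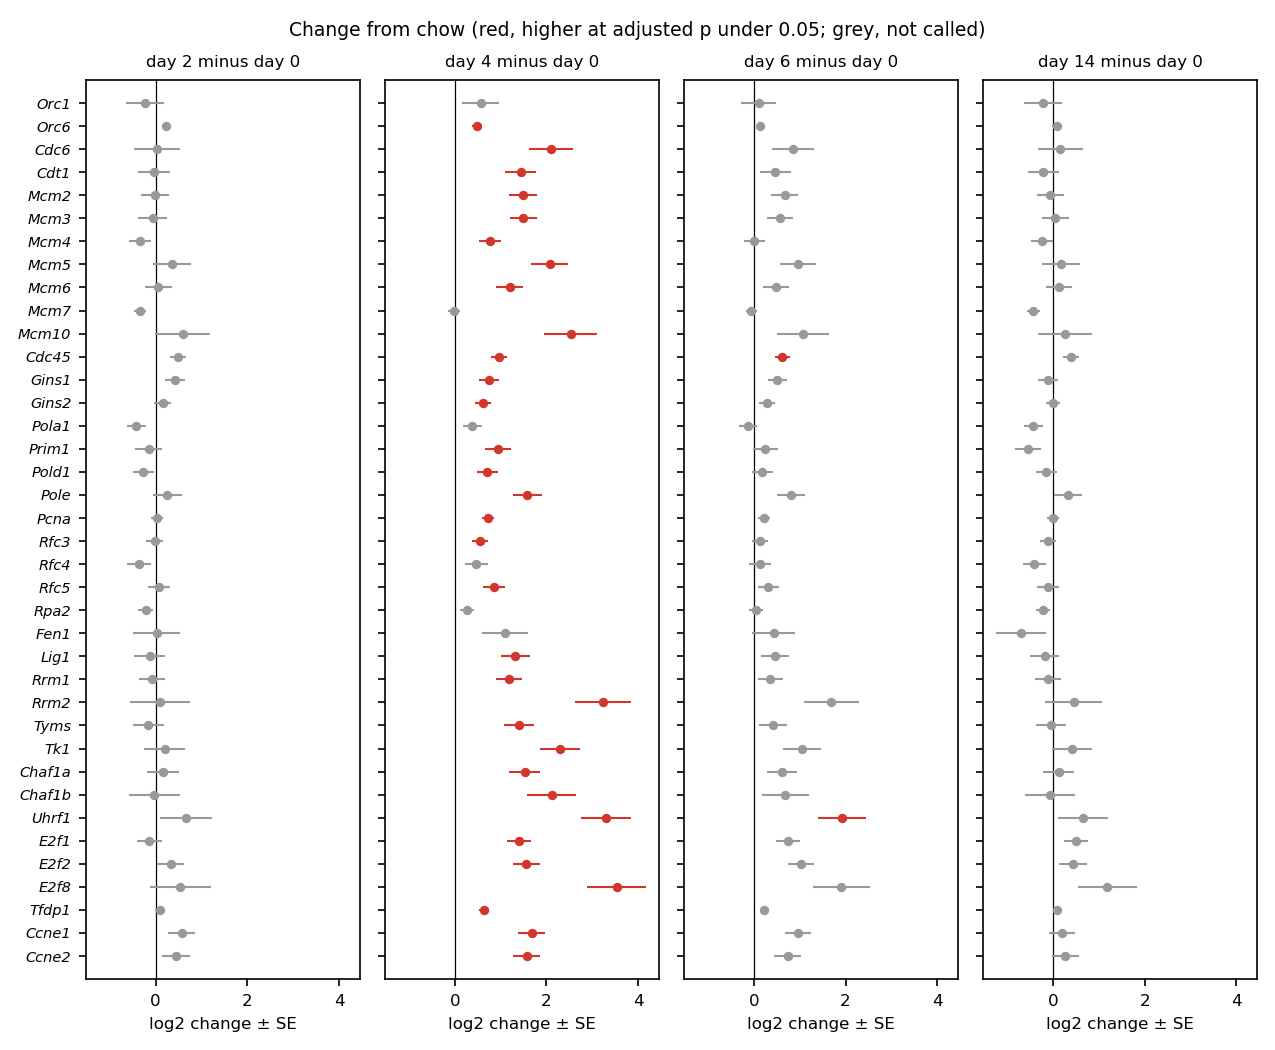
Log2 change from chow with its SE for each of the 38 genes on days 2, 4, 6 and 14, from 4 libraries per group; red points were called higher at an adjusted p under 0.05. On day 4 there are 32 red points and on day 6 there are 2, and on days 2 and 14 the points lie around 0.

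Over the 5 groups, 37 of the 38 genes had their highest mean on day 4, and Mcm7 had its highest on day 0. The days compared with chow share the chow libraries, and both comparisons of days 2 and 14 with day 4 share the day 4 libraries. The levels can be read side by side. Cdc6 averaged 1.63 ± 0.361 CPM (SD, n = 4) on chow and 1.71 ± 0.467, 7.06 ± 3.52, 2.88 ± 1.98 and 1.87 ± 0.769 CPM on days 2, 4, 6 and 14. The chow, day 2 and day 14 means lay within 1 SD of each other, and the day 4 SD reflects the low replicate 1. For Tfdp1, whose libraries agreed more closely, the means were 37.6 ± 1.73, 40 ± 2.3, 58.8 ± 7.98, 44.2 ± 6.61 and 40.2 ± 2.06 CPM. Mcm7 averaged 34.7 ± 1.5, 27.5 ± 4.32, 34.7 ± 6.14, 33.5 ± 5.35 and 25.9 ± 1.66 CPM, so that it was low on days 2 and 14 and near its chow level on days 4 and 6.

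A further 52 genes of the replication machinery outside the 38 were listed by function, and on day 4 28 of them rose (53.8%) and 2 fell (3.85%), with a median log2 change of 0.42, where 18% of all genes rose and 17.3% fell. Without day 4 replicate 1, 33 rose and 2 fell, with a median of 0.51. Among those that rose were Dck, a deoxynucleoside kinase (1.23 ± 0.21, adjusted p = 0.00119), Dnmt1, the maintenance DNA methyltransferase (1.17 ± 0.21, adjusted p = 0.00132), and the checkpoint factors Clspn (3.72 ± 0.71, adjusted p = 0.00152) and Topbp1 (0.77 ± 0.15, adjusted p = 0.00153). Clspn went from 0.872, 0.116, 1.29 and 0.53 CPM on chow to 1.46, 13, 12.9 and 14.2 CPM on day 4, and Dnmt1 from 31.9, 30.1, 31.5 and 29.4 CPM to 37.6, 85.9, 73.2 and 80.9 CPM. In both, day 4 replicate 1 lay just above the chow range and far below the other day 4 libraries. Besides Rrm2b, the histone chaperone gene Rbbp4 fell (-0.26 ± 0.09, adjusted p = 0.0288). Its libraries held 126, 150.2, 139.7 and 127 CPM on chow and 118, 108, 113 and 112 CPM on day 4, all lower. Some subunits were not called: Orc3, Orc4, Orc5, Pold3, Pold4, Pole4 and Gins4 had log2 changes between -0.133 and 0.132 on day 4. On day 14, 19 of the 52 were lower than on day 4 and 1, Rrm2b, was higher (4.78% and 4.58% of all genes). Without day 4 replicate 1 the numbers were 29 and 1, and 2641 of all 15408 genes tested were called in either direction.

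Of 26 genes that control the entry into S phase 25 could be tested, Cdkn2a being too low, and on day 4 11 rose (44%) and 4 fell (16%), with a median of 0.27. The share that fell was near that of all genes (17.3%), so the falls are given as values of single genes. Without day 4 replicate 1, 14 rose and 4 fell, with a median of 0.31. The falls were in Cdkn1b and Cdkn1c, which encode inhibitors of cyclin-dependent kinases, in the retinoblastoma family gene Rbl2 and in Tfdp2, the other Dp partner. Cdkn1b had 47.4, 51, 51.9 and 47.1 CPM on chow and 32.2, 26.3, 32.4 and 22.6 CPM on day 4, with all day 4 libraries lower (log2 change -0.80 ± 0.13, adjusted p = 0.00104). Here replicate 1 was level with the rest. Cdkn1c changed by -1.09 ± 0.24 (adjusted p = 0.00293), Rbl2 by -0.70 ± 0.15 (adjusted p = 0.00262) and Tfdp2 by -0.69 ± 0.15 (adjusted p = 0.00345). Tfdp2 read 50.4, 51.4, 60.6 and 54.6 CPM on chow and 39, 38, 28.9 and 29 CPM on day 4, opposite in direction to Tfdp1. Among the rises were Ccna2, the S-phase cyclin A (4.03 ± 0.72, adjusted p = 0.00125), the D cyclin gene Ccnd3 (0.48 ± 0.10, adjusted p = 0.00188) and the inhibitor gene Cdkn2b (1.86 ± 0.36, adjusted p = 0.0016). Ccna2 had 1.8, 1.16, 3.01 and 1.9 CPM on chow and 4.83, 53.4, 41.9 and 38.8 CPM on day 4; replicate 1 was again far below the other day 4 libraries. Cdkn2b had 13.3, 5.7, 8.68 and 7.04 CPM on chow and 26.5, 28.8, 24.9 and 45.8 CPM on day 4. Its replicate 1 was as high as replicates 2 and 3, unlike in most of the replication genes. Comparing day 14 with day 4, 6 of the 25 were lower and 3 higher (Cdkn1b, Cdkn1c and Tfdp2), where 4.78% of all genes were lower and 4.58% higher. Without day 4 replicate 1, 10 were lower and 3 higher, and 2641 of all 15408 genes tested were called in either direction.

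Genes of mitosis, the stage after S phase, followed the same libraries with a larger median. All 31 rose on day 4 (18% of all genes), with a median log2 change of 3.51 against 1.26 for the replication genes. All 31 were lower on day 14 than on day 4 (4.78% of all genes). Both counts were 31 without day 4 replicate 1 as well, with a day 4 median of 3.91. On day 6 the median over chow was 2.07, and without day 6 replicate 4 it was 0.95. The proliferation marker Mki67 had 10.3, 4.65, 15.9 and 8.32 CPM on chow and 21.4, 208, 175 and 175 CPM on day 4 (log2 change 3.82 ± 0.68, adjusted p = 0.00125). Top2a, the topoisomerase that untangles finished chromosomes, had 5.12, 2.32, 8.15 and 5.61 CPM and 11.1, 127, 88.1 and 97.9 CPM (log2 change 3.84 ± 0.70, adjusted p = 0.00135). For all 31 the 4 highest libraries were again day 4 replicates 2 to 4 and day 6 replicate 4. The difference in size between the lists was not tested. The 2 ranges overlapped, with changes of 1.13 to 3.96 for mitosis and -0.01 to 3.53 for replication.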

How the data were processed

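RNA was sequenced from epididymal fat in 20 libraries, 5 groups of 4. Per the labels, column-purified total RNA was made into TruSeq libraries. The authors deposited whole-number counts per Ensembl gene ID, not normalised. Tools named in the submitters' processing notes, with no role for each, are STAR, featureCounts, CASAVA, R 3.0 and limma. The genome build and strand setting are not given in the sources used here, so gene coordinates come only from the RefSeq promoter windows (GRCm38.p6) and overlaps from GENCODE M21. Symbols were looked up by Ensembl ID (37607 of 39179 matched).

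Counts were analysed in R 4.3.3. Low genes were removed with filterByExpr of edgeR 4.0.16 (minimum count 10, minimum total 15, by group), which left 15254 genes holding at least 99.5% of each library's counts. Libraries were scaled with TMM factors, and CPM uses the scaled totals. One quasi-likelihood fit (robust, 15 residual degrees of freedom, group as the only term) gave each comparison's F test, with Benjamini-Hochberg adjustment over all genes tested and a call at an adjusted p under 0.05. Standard errors come from the F statistic. Differences from chow by library use log2 CPM with a prior count of 2. The steps were tested on simulated counts.

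The members and lists were chosen with earlier results of these data known, so the members' direction is not independent evidence. By rule, per-library values are given for the 2 members of each role with the highest mean CPM and for those with the largest and smallest day 4 change, for called genes of the other lists with the lowest adjusted p, every one of their genes that fell, and 2 mitosis genes; the rest were chosen after their values were seen. Alternatives were RLE size factors, library size only, no filter, a stricter filter (a mean of 2 CPM and 4 libraries at 1 CPM), DESeq2 1.42.0, limma-voom (3.58.1), separate fits of the groups compared, a replicate block, an adjusted p under 0.01, an absolute log2 change above 1, and each library left out. Leaving out day 0 replicate 4 and day 2 replicate 1 together, and day 4 replicate 1 and day 6 replicate 4 together, was added after seeing the data.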

Additional observations from a re-analysis of the deposited data

Results flagged for a closer look

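For each of the 38 genes and 5 days, the highest or lowest of the 4 libraries was checked for a gap to the next of more than 83% of the group's range, which is Dixon's critical value for 4 values. This held in 19 of 190 groups. The genes share the same libraries and are not independent, so the count is not set against a chance rate. Day 4 replicate 1 accounted for 6 of the 19, standing low for Cdc6 (1.78 CPM), Pold1 (9.28 CPM), Rpa2 (11.3 CPM), Lig1 (7.5 CPM), Chaf1a (5.4 CPM) and E2f8 (1.21 CPM). Day 6 replicate 4 accounted for 7, standing high for Cdc6 (5.84 CPM), Mcm10 (5.33 CPM), Lig1 (18.4 CPM), Rrm2 (19.2 CPM), Tyms (12.1 CPM), E2f8 (6.15 CPM) and Ccne2 (7.06 CPM). The other 6 were spread over 5 libraries. Rfc3 was high in day 0 replicate 4 (6.7 CPM) and Rfc4 in day 14 replicate 4 (3.26 CPM). Rfc5 was low in day 2 replicate 2 (6.62 CPM) and Rpa2 in day 0 replicate 1 (10.5 CPM). In day 2 replicate 1, the shallowest library, E2f8 was at 0 CPM and Ccne2 at 2.16 CPM.

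Levels were compared directly between days of high-fat diet, where no day had chow libraries of its own. By edgeR's quasi-likelihood test at an adjusted p under 0.05, 21 of the 38 genes were higher on day 4 than on day 2. By the same test 35 were lower on day 14 than on day 4. Of all genes tested, 2.14% were called higher and 4.78% lower in these comparisons. The counts ran from 0 to 34 and from 0 to 37 when 1 library was left out.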

How the results depend on the processing

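Counts of called genes among the 38 are given. Ranges with 1 library left out cover the libraries of the groups compared. On day 4 against chow (32), the count was 21 with an absolute log2 change above 1, 26 with limma-voom, 27 with only the groups compared, 29 with library size only, and 27 to 34 with 1 library left out. Of the 32 genes 27 kept the call in every such fit, and Mcm4, Gins2, Prim1, Pold1 and Rfc3 lost it at least once. The log2 change of Mcm7 ran from -0.087 without day 4 replicate 4 to positive values, 0.02, 0.10 and 0.01 without day 0 replicate 3, day 4 replicate 1 and day 4 replicate 3, respectively. On day 6 against chow (2), it was 0 with RLE factors, library size only, no filter, a stricter filter, only the groups compared, an adjusted p under 0.01 or both doubted libraries left out. It was 1 with limma-voom, the replicate block or an absolute log2 change above 1, and 6 with DESeq2. With 1 library of these groups left out it was 0 to 5, and without day 4 replicate 1 it was 8. Day 4 against day 2 (21) gave 0 with library size only, no filter, limma-voom, only the groups compared, an adjusted p under 0.01 or both doubted libraries left out, and 0 to 34 with 1 left out. Day 14 against day 4 (35) gave 22 with no filter or an absolute log2 change above 1, 20 with only the groups compared, 5 with limma-voom, 0 at an adjusted p under 0.01, and 0 to 37 with 1 left out. Day 6 against day 4 (0) gave 0 to 26 with 1 left out, and in the fit with 26 there were 737 calls among all 15408 genes tested. The test of any difference (31) gave 14 with limma-voom, 12 at an adjusted p under 0.01, 20 without day 4 replicate 2, 14 without day 4 replicate 4 and 14 to 36 overall with 1 left out. Day 14 against chow (0) gave 1 with only the groups compared and 0 otherwise, day 2 against chow (0) gave 0 to 1, and day 14 against day 6 (0) gave 0 throughout. With day 4 replicate 1 and day 6 replicate 4 both left out, the counts were 35 for day 4 and 0 for day 6 against chow, 34 for day 4 against day 2, 31 for day 6 against day 4, 37 for day 14 against day 4 and 36 for any difference, and Mcm7 changed by 0.11 on day 4. Of the 15390 genes tested in that fit, 5751, 29, 2520, 2249, 2821 and 4160 were called in these comparisons, in the same order. The cause of these shifts was not tested. Unfiltered fits tested 26613 genes in place of 15254. The labels do not say what a replicate number shares. The sample numbers in them run consecutively within replicate 3 and within replicate 4, and those of replicates 1 and 2 interleave only through day 0 replicate 2. Same-numbered libraries of different days correlated at -0.185 to 0.516 in their deviations from the group means. Their median was 0.038, against -0.010 for pairs with other numbers, and 10 of 20 libraries correlated best with their own number. With the replicate block the counts were 32 for day 4 against chow, 26 for day 4 against day 2, 34 for day 14 against day 4 and 33 for any difference. Depth limits the sparse genes most: in day 2 replicate 1 the 38 genes shared 644 counts, and Fen1 and E2f8 had none.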
